A study of Homo sapiens with 12 samples.

Results

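The 8 genes described here encode enzymes that make serine, glycine, one-carbon units and proline, and they were taken by gene name from the 60612 genes counted in LX2 cells. LX2 is an established human cell line that derives from hepatic stellate cells, which lay down collagen when the liver is injured. Polyadenylated RNA was sequenced in 12 libraries, 4 in each of 3 groups of wild-type cells. In the group called STINGX with TGFb, STINGX, a compound known here by its code name, was applied at 10 µM for 3 h before TGFb (transforming growth factor beta) at 5 ng/ml for a further 16 h. The TGFb group had the same TGFb treatment without STINGX, and the control group was untreated. Cells of all 3 groups were starved of serum for 16 h, beginning 24 h after seeding. No group had STINGX alone, so STINGX was seen only together with TGFb. All 8 genes passed the filter on low counts, as did 21328 genes in all.

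Serine is made from a glycolytic intermediate in a short chain of reactions. PHGDH oxidises 3-phosphoglycerate, PSAT1 adds the amino group and PSPH removes the phosphate. Serine hydroxymethyltransferases, SHMT1 in the cytosol and SHMT2 in mitochondria, then split serine into glycine and a one-carbon unit carried on folate, and MTHFD2 oxidises that unit further in mitochondria. Proline comes from glutamate: ALDH18A1 makes the pyrroline-5-carboxylate precursor and PYCR1 reduces it to proline, both in mitochondria. Collagen is built of a repeat in which glycine recurs and proline is abundant. Cells that secrete much collagen therefore use both products, and several of these genes are known targets of the transcription factor ATF4.

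The 5 members with an entry in the RefSeq promoter table (GRCh38.p14) were PHGDH, PSAT1, SHMT1, MTHFD2 and ALDH18A1. The 250 bases before the start given there are shown for 4 of them. PSAT1 and MTHFD2 are given because both were higher in every comparison below, and PHGDH and ALDH18A1 because they were lower with STINGX. PHGDH is chr1:119711684-119711933 on the plus strand, PSAT1 chr9:78296875-78297124 on the plus strand, MTHFD2 chr2:74198365-74198614 on the plus strand and ALDH18A1 chr10:95656712-95656961 on the minus strand. The PHGDH window lies inside the span over which that gene was counted, 119648411 to 119744218 with 34 annotated transcripts, and not before its first base. Capitals mark TGATGCA (the core of the composite element bound by ATF4 with C/EBP proteins, found here on the opposite strand of PHGDH), CAGAC (a SMAD box, in MTHFD2) and CACGTG (an E-box, in ALDH18A1).
PHGDH: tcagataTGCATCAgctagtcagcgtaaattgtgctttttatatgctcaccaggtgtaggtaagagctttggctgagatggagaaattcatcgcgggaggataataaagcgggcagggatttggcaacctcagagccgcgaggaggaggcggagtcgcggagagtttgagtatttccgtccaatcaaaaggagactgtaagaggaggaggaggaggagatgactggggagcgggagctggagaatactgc
PSAT1: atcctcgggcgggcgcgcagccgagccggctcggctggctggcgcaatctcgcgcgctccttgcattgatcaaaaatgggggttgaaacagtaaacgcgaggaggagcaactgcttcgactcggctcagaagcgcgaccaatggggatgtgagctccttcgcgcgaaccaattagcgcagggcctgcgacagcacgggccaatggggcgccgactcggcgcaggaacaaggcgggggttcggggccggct
MTHFD2: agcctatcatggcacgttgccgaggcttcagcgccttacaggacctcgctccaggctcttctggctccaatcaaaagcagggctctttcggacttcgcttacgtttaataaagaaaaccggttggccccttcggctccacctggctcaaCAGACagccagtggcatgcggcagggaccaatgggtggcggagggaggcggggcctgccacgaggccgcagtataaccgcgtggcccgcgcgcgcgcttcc
ALDH18A1: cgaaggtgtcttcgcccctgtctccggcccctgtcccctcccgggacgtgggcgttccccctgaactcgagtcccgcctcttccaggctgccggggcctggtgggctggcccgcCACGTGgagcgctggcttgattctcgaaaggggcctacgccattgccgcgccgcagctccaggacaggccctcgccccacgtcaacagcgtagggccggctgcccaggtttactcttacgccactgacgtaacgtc
Each motif was searched on both strands in windows that also held the 50 bases after the start. In PSAT1 a CAGAC lay in those 50 bases. None of the 3 motifs was found in the SHMT1 window. Among 34796 distinct promoter windows of the same length, TGATGCA was found in 2.63%, CACGTG in 7.20% and CAGAC in 45.3%, so CAGAC in 2 members of 5 is close to its share among all promoters. A match is a run of letters and does not show that a factor binds there.

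The libraries held between 54035320 and 70787741 counts. Levels are given as CPM, counts scaled to a common library total by TMM, the trimmed mean of M-values, and as the authors' FPKM where genes are compared with each other, since FPKM is per length. A gene is said to rise or fall where the adjusted p was under 0.05 in edgeR's quasi-likelihood test, and fold changes are log2 values with a standard error (SE), with 4 libraries in each group. Separate cultures are not stated for the replicates, and p-values therefore reflect the spread between these libraries alone, which may be technical. COL1A1, the collagen product, averaged 1644 ± 15.2 CPM in STINGX with TGFb, 6367 ± 121 CPM in TGFb and 2307 ± 16.4 CPM in control (SD, n = 4 each). Of 12 stellate cell markers 10 averaged at least 1 CPM, and DES and LRAT were at 0. The stellate markers together summed to between 5052 and 5547 CPM in STINGX with TGFb, 10543 and 10903 CPM in TGFb, and 6188 and 6312 CPM in control. Of the 10 stellate markers tested, 5 rose and 4 fell with TGFb against control, 1 rose and 6 fell in STINGX with TGFb against TGFb, and 1 rose and 7 fell in STINGX with TGFb against control, so the sum, of which COL1A1 is a large part, does not stand for each of them. The 9 macrophage and leukocyte markers summed to between 74.7 and 90.4 CPM in STINGX with TGFb, 30.6 and 35.7 CPM in TGFb, and 73.1 and 80.8 CPM in control, with CD3E at 0. Most of that sum was CD68, at 75.9, 24.4 and 59.6 CPM on average in STINGX with TGFb, TGFb and control. Of the 5 tested in this list, 1 rose and 3 fell with TGFb against control, 1 rose and 1 fell in STINGX with TGFb against TGFb, and 2 rose and 2 fell in STINGX with TGFb against control. Hepatocyte markers summed to at most 71.4 CPM in any library, with ALB, APOA2, APOC3, TTR and FGB at 0. Most of that sum was CPS1, at 53.8, 58.7 and 52.0 CPM on average in STINGX with TGFb, TGFb and control. Endothelial markers reached at most 15.3 CPM, with LYVE1 at 0, and epithelial markers at most 65.1 CPM, with CFTR at 0. In the same order of groups, TEK, the largest endothelial part, averaged 8.97, 9.76 and 5.35 CPM. The epithelial sum was mostly SOX9, at 20.5, 30.8 and 31.5 CPM, and KRT7, at 9.79, 29.4 and 14.8 CPM. The part of these differences in the results below was not tested. In bulk RNA a lower level in each cell and fewer expressing cells cannot be told apart.

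With TGFb alone, 4 of the 8 enzymes rose relative to control (MTHFD2, ALDH18A1, PSAT1 and PYCR1), 1 fell (SHMT1) and PHGDH, PSPH and SHMT2 did not pass. Of all genes tested, 13.2% rose and 12.8% fell in this comparison. With single libraries left out 2 to 4 of the 8 passed, and only MTHFD2 and ALDH18A1 did so in every such fit. The median log2 change of the 8 was 0.16, against -0.004 over all genes tested. When STINGX preceded TGFb, PSAT1, SHMT2 and MTHFD2 were higher than with TGFb alone, and PHGDH and ALDH18A1 were lower. The corresponding shares among all genes were 13.7% higher and 13.8% lower, and the median of the 8 was -0.19 against 0.006. Set against control, STINGX with TGFb raised PSAT1, SHMT2 and MTHFD2 and lowered PHGDH and SHMT1, where 17.2% of all genes rose and 17.0% fell. The median of the 8 was then 0.09, against 0.004. The comparisons share groups of libraries, so their values are given side by side and are not independent of each other.

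**Figure D1:**
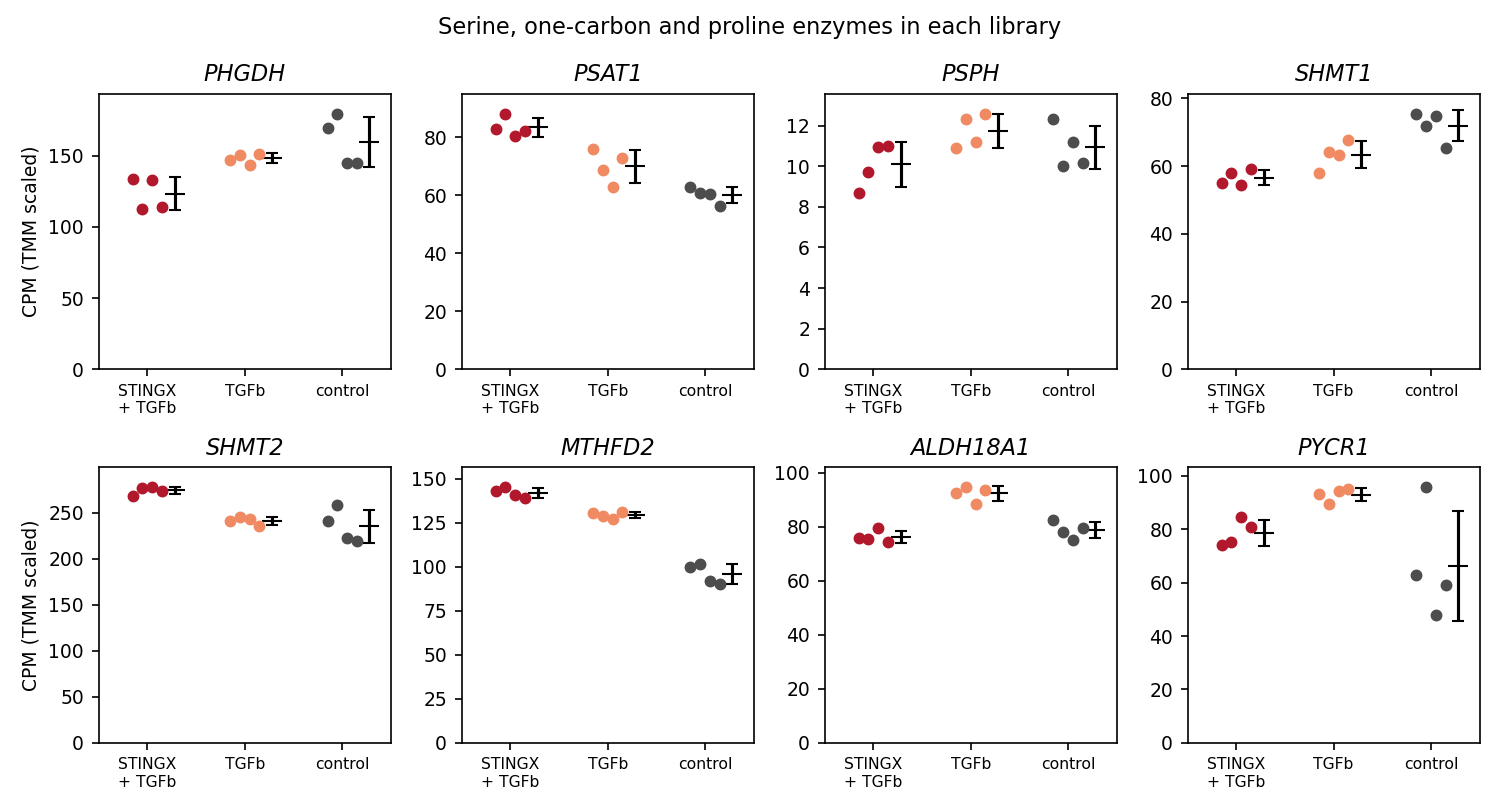
Levels of the 8 enzymes in each of 12 libraries, in TMM-scaled CPM on linear axes that start at 0, for STINGX with TGFb, TGFb and control from left to right. Points are libraries and bars are the mean ± SD of 4. MTHFD2 libraries do not overlap between any of the groups, and PYCR1 in control ranges between 47.9 and 95.7 CPM.

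PHGDH, the first and committed step of serine synthesis (ENSG00000092621, chromosome 1, 119648411 to 119744218 in GRCh38, plus strand), was measured at 133, 113, 133 and 114 CPM in STINGX with TGFb, at 147, 151, 144 and 151 CPM in TGFb, and at 169, 179, 145 and 145 CPM in control. All 4 STINGX with TGFb libraries lay below all those of both other groups, while TGFb and control overlapped. PHGDH fell by 0.27 ± 0.08 (SE, adjusted p = 0.0246) on the log2 scale in STINGX with TGFb relative to TGFb. Against control it fell by 0.37 ± 0.08 (adjusted p = 0.00281) with STINGX and TGFb. With TGFb alone the change was -0.11 ± 0.08 (adjusted p = 0.375). The fall relative to TGFb missed the threshold in 4 of 12 other settings (adjusted p up to 0.319), which were scaling by library totals alone, where it was -0.13 (adjusted p = 0.220), and the 3 fits of FPKM values. On the FPKM scale these groups overlapped, with 12.8, 10.7, 12.9 and 10.9 FPKM in STINGX with TGFb and 12.7, 13.1, 12.6 and 13.3 FPKM in TGFb. It also missed the threshold without STINGX with TGFb replicate 2 (adjusted p = 0.0754) or 4 (0.0743), and without TGFb replicate 2 (0.0575) or 4 (0.0588).

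PSAT1, the aminotransferase of the next step (ENSG00000135069, chromosome 9, 78297125 to 78330093, plus strand), moved the other way. It was measured at 82.9, 88.1, 80.3 and 82.3 CPM in STINGX with TGFb, at 75.8, 68.7, 62.7 and 72.8 CPM in TGFb, and at 63.0, 60.8, 60.4 and 56.4 CPM in control. The STINGX with TGFb libraries were above all others, and the TGFb and control groups overlapped by a single library. PSAT1 rose 1.39-fold in STINGX with TGFb relative to control (log2 0.47 ± 0.06, adjusted p = 6.24e-05) and by 0.25 ± 0.06 relative to TGFb (adjusted p = 0.00781). These calls held in all 12 other settings and without any single library. The rise with TGFb alone over control was 0.22 ± 0.06 (adjusted p = 0.0185). It missed the threshold in 5 of 12 other settings, among them scaling by library totals alone (0.16, adjusted p = 0.0633), and also without TGFb replicate 1 (adjusted p = 0.0623), TGFb replicate 4 (0.0558) or control replicate 4 (0.0538).

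PSPH, the phosphatase that releases serine (ENSG00000146733, chromosome 7, 56011051 to 56051467, minus strand), was the lowest of the 8 on the CPM scale. Its levels were 8.69, 9.72, 11.0 and 11.0 CPM in STINGX with TGFb, 10.9, 12.3, 11.2 and 12.6 CPM in TGFb and 12.3, 10.0, 11.2 and 10.2 CPM in control. The 3 groups overlapped. PSPH changed by -0.22 in STINGX with TGFb relative to TGFb, with a 95% interval of -0.45 to 0.01 (adjusted p = 0.135). The interval was -0.34 to 0.11 for STINGX with TGFb against control, and -0.13 to 0.33 for TGFb against control.

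SHMT1, the cytosolic serine hydroxymethyltransferase (ENSG00000176974, chromosome 17, 18327860 to 18363563, minus strand), was measured at 55.0, 58.1, 54.4 and 59.0 CPM in STINGX with TGFb, at 58.1, 64.2, 63.4 and 67.7 CPM in TGFb, and at 75.4, 72.0, 74.7 and 65.4 CPM in control. The STINGX with TGFb libraries were all below control, and each of these groups overlapped TGFb. SHMT1 fell by 0.34 ± 0.06 in STINGX with TGFb relative to control (adjusted p = 0.000714), in all 12 other settings and without any single library. The difference from TGFb was -0.16 ± 0.06 (adjusted p = 0.067), and it passed without TGFb replicate 1 (0.0321), without control replicate 4 (0.0443) and under a filter of 1 CPM in 4 libraries (0.0457). It shrank to -0.02 when libraries were scaled by their totals alone. TGFb alone lowered SHMT1 by the test, with a change of -0.18 ± 0.06 (adjusted p = 0.0419). That call was lost in 10 of the 12 fits that left out 1 library, with adjusted p between 0.0133 and 0.119 over the 12. It remained only without TGFb replicate 4 and without control replicate 4. The annotated span of SHMT1, which had 48502 counts over all libraries, overlaps that of SMCR8 on the opposite strand, which had 89909. The kit was stranded, but whether strand was used in counting is not given in the sources used here. Reads of both genes could therefore have been divided between them.

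SHMT2, the mitochondrial enzyme of the same reaction (ENSG00000182199, chromosome 12, 57229573 to 57234935, plus strand), was the most abundant of the 8 in every group. It was measured at 269, 277, 277 and 273 CPM in STINGX with TGFb, at 241, 245, 243 and 236 CPM in TGFb, and at 241, 258, 223 and 219.7 CPM in control. All 4 STINGX with TGFb libraries were above all the others. SHMT2 rose by 0.18 ± 0.05 (adjusted p = 0.0119) relative to TGFb and by 0.22 ± 0.05 (adjusted p = 0.00319) relative to control in STINGX with TGFb. Both calls held in the 12 other settings and without any single library. For TGFb against control the change was 0.04 with a 95% interval of -0.07 to 0.14 (adjusted p = 0.645).

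By these tests SHMT2 was higher and SHMT1 lower in STINGX with TGFb than in control. A ratio of both within each library needs no scaling between libraries, although it can show only that they changed unequally. The FPKM ratio of SHMT2 to SHMT1 was 7.76, 7.59, 8.11 and 7.36 in STINGX with TGFb, 6.59, 6.07, 6.09 and 5.53 in TGFb, and 5.07, 5.70, 4.73 and 5.33 in control. It averaged 7.70 ± 0.314, 6.07 ± 0.435 and 5.21 ± 0.410 in STINGX with TGFb, TGFb and control (SD, n = 4 each). The STINGX with TGFb libraries lay above all those of TGFb, by 0.35 on the log2 scale (exact two-sided permutation test, p = 0.0286, the smallest that 4 libraries against 4 allow, and 0.0429 adjusted over 6 such tests, 3 of them given here). They also lay above all control libraries, by 0.57 (exact permutation p = 0.0286, adjusted 0.0429). TGFb and control overlapped, with a difference of 0.22 (exact permutation p = 0.0571, adjusted 0.0686).

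**Figure D2:**
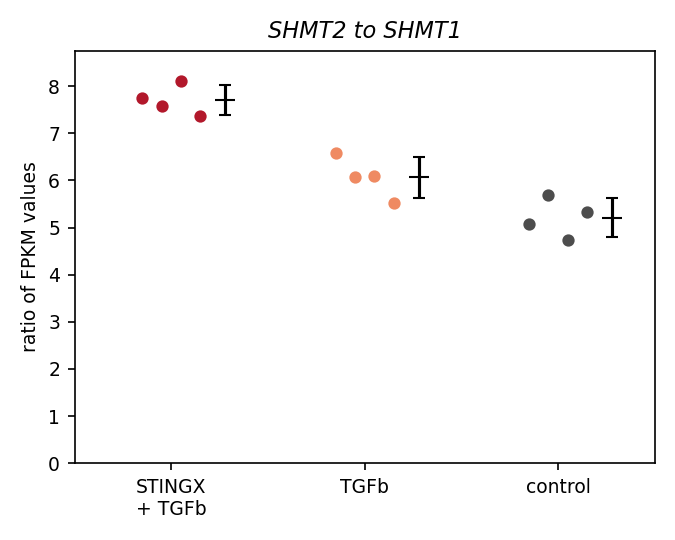
Ratio of the FPKM values of SHMT2 to SHMT1 in each library, on a linear axis that starts at 0, for STINGX with TGFb, TGFb and control from left to right. Points are libraries and bars are the mean ± SD of 4. The ratio of STINGX with TGFb averages 7.70 and lies above every other library.

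MTHFD2, the mitochondrial methylenetetrahydrofolate dehydrogenase (ENSG00000065911, chromosome 2, 74198610 to 74215298, plus strand), had the clearest separation. It was measured at 143, 145, 141 and 139 CPM in STINGX with TGFb, at 130.3, 129, 127 and 131 CPM in TGFb, and at 99.7, 101, 92.0 and 90.3 CPM in control. No library of one group overlapped another group. MTHFD2 rose 1.35-fold with TGFb relative to control (log2 0.43 ± 0.04, adjusted p = 7.87e-06) and 1.48-fold in STINGX with TGFb relative to control (log2 0.57 ± 0.04, adjusted p = 5.59e-07). Both calls held in all 12 other settings and without any single library. The further rise in STINGX with TGFb over TGFb was 0.13 ± 0.04 (adjusted p = 0.0336). That call held in the 12 other settings and without any single control library, and it was lost when any single STINGX with TGFb or TGFb library was left out, with adjusted p between 0.0233 and 0.0884 over the 12 fits. MTHFD2L, a related mitochondrial enzyme of the same step, was lower in both treated groups than in control. It averaged 5.88 ± 0.597 CPM in STINGX with TGFb, 5.93 ± 0.786 CPM in TGFb and 9.33 ± 1.53 CPM in control. It fell by 0.66 ± 0.14 (adjusted p = 0.00381) with TGFb relative to control.

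ALDH18A1, which makes the proline precursor (ENSG00000059573, chromosome 10, 95605941 to 95656711, minus strand), rose with TGFb and stood near the control level with STINGX. It was measured at 75.7, 75.7, 79.6 and 74.4 CPM in STINGX with TGFb, at 92.6, 94.6, 88.5 and 93.8 CPM in TGFb, and at 82.4, 78.1, 75.2 and 79.7 CPM in control. All TGFb libraries were above all libraries of both other groups, which overlapped each other. ALDH18A1 rose by 0.23 ± 0.04 (adjusted p = 0.0015) with TGFb relative to control. It fell by 0.28 ± 0.04 (adjusted p = 0.000349) in STINGX with TGFb relative to TGFb. Both calls held in the 12 other settings and without any single library. Between STINGX with TGFb and control the change was -0.05, with a 95% interval of -0.14 to 0.05 (adjusted p = 0.438).

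PYCR1, which completes proline (ENSG00000183010, chromosome 17, 81932384 to 81941079, minus strand), was measured at 74.2, 75.1, 84.7 and 80.8 CPM in STINGX with TGFb, at 93.1, 89.5, 94.3 and 95.3 CPM in TGFb, and at 62.8, 95.7, 47.9 and 59.0 CPM in control. Control replicate 2, at 95.7 CPM, was above every other library. The STINGX with TGFb libraries were all below TGFb, and the control group overlapped both others. PYCR1 rose by 0.49 ± 0.16 (adjusted p = 0.0475) with TGFb relative to control. The call was lost in 7 of 12 other settings, and of the 12 fits that left out 1 library it held only in the one without control replicate 2 (adjusted p up to 0.116 in the others). In that fit, read out after the high value was seen, the rise was 0.72 (adjusted p = 7.18e-05). There PYCR1 was also lower in STINGX with TGFb than in TGFb (-0.24, adjusted p = 0.0367) and higher than in control (0.48, adjusted p = 0.00115). With all libraries those differences were -0.24 ± 0.16 (adjusted p = 0.315) and 0.25 ± 0.16 (adjusted p = 0.281). When STINGX with TGFb and TGFb were fitted alone, without control, the difference between them was -0.23 and passed (adjusted p = 0.00764). In control replicate 2 the transcript ENST00000577756 took 1132 of the 6151 PYCR1 counts. It also took 706 of 4928 in TGFb replicate 3, and between 8 and 247 counts in each of the other libraries. Without that transcript the gene stood at 78.1 CPM in control replicate 2, against 62.6, 47.0 and 56.1 CPM in the other control libraries, and at 80.8 CPM in TGFb replicate 3. Over 11839 genes control replicate 2 deviated from its group mean by 0.157 on average on the log2 scale, where the 12 libraries ranged between 0.118 and 0.157.

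PYCR3, the cytosolic form, averaged 9.04 ± 4.10 CPM in STINGX with TGFb, 10.5 ± 1.75 CPM in TGFb and 8.92 ± 1.12 CPM in control, and did not pass in any comparison.

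**Figure D3:**
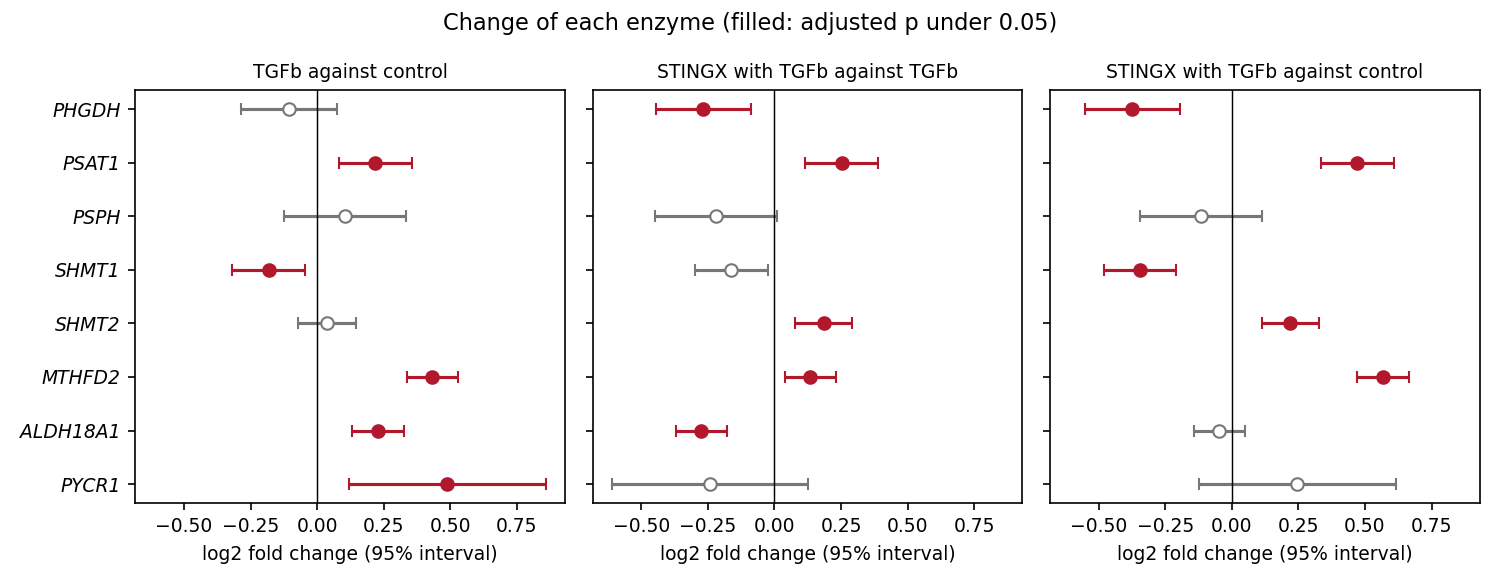
Log2 fold change of each enzyme with its 95% interval in the 3 comparisons, on a linear axis where values above 0 are higher in the group named first. Filled points have an adjusted p under 0.05. MTHFD2 and PSAT1 are filled on the positive side in each comparison, and ALDH18A1 is at 0.23 with TGFb against control and at -0.28 with STINGX and TGFb against TGFb.

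Compared per length, the order of the mean levels differed between groups, but every pair that changed places overlapped in a group compared. In STINGX with TGFb the order was SHMT2 at 52.7 FPKM, PSAT1 at 33.4, MTHFD2 at 26.0, PYCR1 at 24.1, ALDH18A1 at 17.9, PHGDH at 11.8, SHMT1 at 6.85 and PSPH at 3.22 FPKM. There the libraries of neighbours overlapped only for MTHFD2 and PYCR1. In TGFb it was SHMT2 at 42.2 FPKM, PYCR1 at 25.9, PSAT1 at 25.5, MTHFD2 at 21.5, ALDH18A1 at 19.7, PHGDH at 12.9, SHMT1 at 6.97 and PSPH at 3.40 FPKM, with overlap of PYCR1 and PSAT1 only. In control SHMT2 led at 42.8 FPKM and SHMT1, at 8.25, and PSPH, at 3.30 FPKM, were lowest. The 5 in between, PSAT1 at 22.8, PYCR1 at 19.2, ALDH18A1 at 17.6, MTHFD2 at 16.6 and PHGDH at 14.5 FPKM, each overlapped the next, so their order in control does not exceed the spread between libraries. On the FPKM scale PSAT1 stood above PHGDH, the step before it, in every group. In CPM, which is not divided by length, the mean of PHGDH was the higher in every group. It was 123 CPM against 83.4 CPM for PSAT1 in STINGX with TGFb, and 160 against 60.2 CPM in control. The order of these genes therefore depends on the lengths used for FPKM, which were not examined.

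Over the 12 libraries the enzymes did not follow a single pattern. Likeness was measured as the root mean square (RMS) difference between the centred log2 CPM of a pair of genes, among 11839 genes with at least 5 CPM on average. PSAT1 and MTHFD2 differed by 0.108, and PHGDH and PSAT1, neighbours in the same pathway, by 0.368. The member nearest to PHGDH was SHMT1, at 0.137. This measure depends on the size of the changes: PHGDH would differ by 0.189 from a gene that did not vary at all. Many other genes were nearer: by this measure MTHFD2 ranked 184 for PSAT1, and SHMT1 ranked 568 for PHGDH. For PSAT1 the closest genes of all were SOS2 (0.0509), NDUFAF2 (0.0526) and NR1D2 (0.0592), and for MTHFD2 they were DNAJC24 (0.0474), EGFR (0.0562) and ZBED4 (0.0580). ALDH18A1 was closest to CLIC4 (0.0354), SERBP1 (0.0379) and WBP11 (0.0451), and SHMT2 to TMEM43 (0.0323), TOMM34 (0.0351) and MMGT1 (0.0457). The nearest to PHGDH were UNG (0.0623), CDKN2AIPNL (0.0628) and LSM2 (0.0666), and to SHMT1 SKP1 (0.0627), PPA1 (0.0634) and PTPRA (0.0662). PSPH was nearest to DDX56 (0.0675), MZT1 (0.0993) and SEPTIN8 (0.103). PYCR1 had no gene nearer than PORCN (0.136), followed by SLC2A6 (0.137) and ZNF592 (0.140).

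The deposited transcript counts show which transcripts carried these levels. The 8 genes had 124 annotated transcripts, of which 76 were tested. With TGFb against control 2 passed, where 2.33% of all transcripts tested did. With STINGX and TGFb 3 passed against TGFb (2.40% of all) and 4 against control (3.45% of all). MTHFD2 was carried by ENST00000394053, with between 94.7% and 99.0% of its counts in every library. This transcript rose by 0.36 ± 0.07 (adjusted p = 0.0204) with TGFb relative to control and by 0.54 ± 0.07 (adjusted p = 0.0013) in STINGX with TGFb relative to control. PSAT1 was carried by ENST00000376588, with at least 94.6% of its counts, which rose by 0.43 ± 0.08 (adjusted p = 0.0182) in STINGX with TGFb relative to control. ENST00000414700 of SHMT2, on average 7.03% of the counts of the gene in STINGX with TGFb, 5.11% in TGFb and 3.91% in control, rose by 1.04 ± 0.20 (adjusted p = 0.0162) in STINGX with TGFb relative to control. ENST00000369407 of PHGDH averaged 3.47% of the counts of the gene in STINGX with TGFb, 0.677% in TGFb and 3.91% in control. It fell by 2.69 ± 0.45 (adjusted p = 0.00918) with TGFb relative to control, and it was higher by 2.09 ± 0.44 (adjusted p = 0.0344) in STINGX with TGFb than in TGFb. ENST00000477455 of MTHFD2 is also among the 3 that passed against TGFb, but it was at 0.262% of the counts of the gene in STINGX with TGFb and 0.0141% in TGFb. It entered the test only through the group where it is high, so nothing is read from its call. Under a filter of 1 CPM in 4 libraries 1 of the members' transcripts passed in that comparison.

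For SHMT1, PYCR1 and PHGDH the division among transcripts differed between libraries of the same group. The leading SHMT1 transcript, ENST00000316694, held between 4.19% and 80.6% of the counts of the gene, and the leading PYCR1 transcript, ENST00000329875, between 2.05% and 80.4%. Among control libraries ENST00000641023 of PHGDH held between 1.05% and 22.2% of the counts of the gene, and ENST00000369409 between 1.95% and 24.0%. ENST00000619204 of PYCR1 passed against both TGFb and control, but it held 71.8% of the counts in STINGX with TGFb replicate 3 and at most 0.484% in any other library, so its calls rest on that library. Gene totals are the sum over transcripts and are not affected by the division. Pseudogenes named after the members took few counts: of 13, 9 had none in any library, and the highest single value was 12 counts, for MTHFD2P7.

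**Figure D4:**
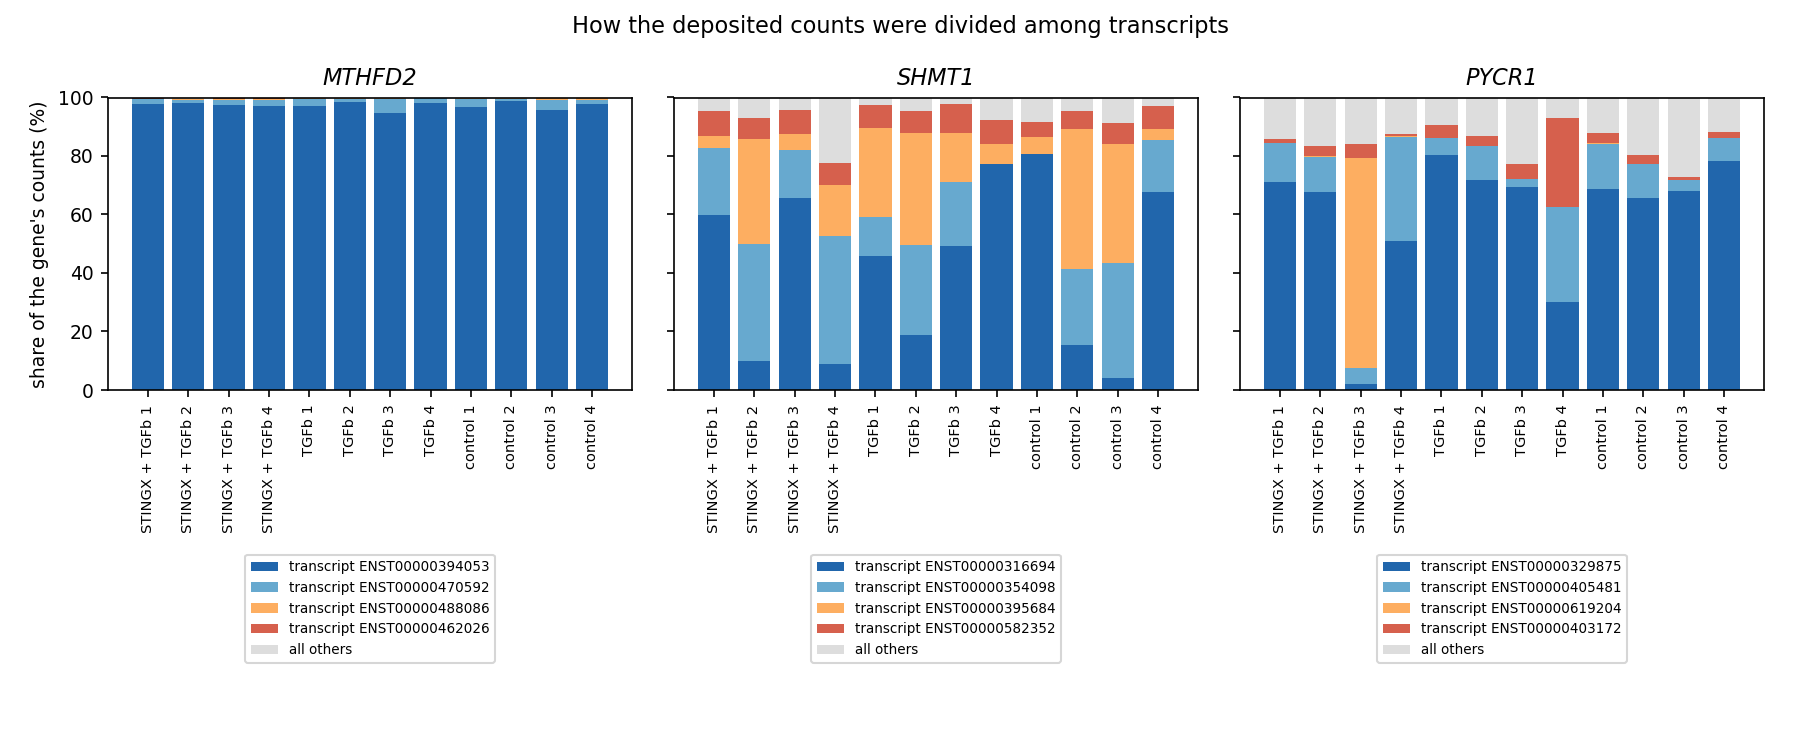
Share of the counts of MTHFD2, SHMT1 and PYCR1 given to their 4 leading transcripts and to all others, in percent, in each of 12 libraries, from STINGX with TGFb on the left to control on the right. Each bar is a library and sums to the whole gene. MTHFD2 keeps a single leading transcript, while the leading SHMT1 transcript runs between 4.19% and 80.6%.

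Genes of neighbouring pathways were counted beside the 8, in lists chosen with earlier results of these data known. Among all genes tested, 13.2% rose and 12.8% fell with TGFb against control, 13.7% and 13.8% in STINGX with TGFb against TGFb, and 17.2% and 17.0% in STINGX with TGFb against control. Around the serine and glycine steps 16 genes were tested. Of these 2 rose and 3 fell with TGFb against control (12.5% and 18.8%), and 3 rose and 3 fell in STINGX with TGFb against TGFb (18.8% each), close to the shares among all genes. In STINGX with TGFb against control 5 rose and 4 fell (31.2% and 25.0%). With TGFb the risers were SPTLC2, a subunit of the enzyme that joins serine to palmitoyl-CoA (0.54 ± 0.05, adjusted p = 3.25e-06), and SFXN1, the mitochondrial serine carrier (0.29 ± 0.04, adjusted p = 0.000325). SFXN3, a related carrier, fell by 0.51 ± 0.06 (adjusted p = 3.43e-05). SLC38A2, a plasma membrane carrier of small neutral amino acids, averaged 552 ± 5.29 CPM in STINGX with TGFb, 441 ± 9.84 CPM in TGFb and 519 ± 17.6 CPM in control. It fell by 0.23 ± 0.03 (adjusted p = 0.000138) with TGFb relative to control and was 0.32 ± 0.03 higher (adjusted p = 8.13e-06) in STINGX with TGFb than in TGFb.

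Beside MTHFD2, 14 other folate genes were tested, and 3 rose and 3 fell with TGFb against control (21.4% each, against 13.2% and 12.8% of all genes). In STINGX with TGFb against TGFb 1 rose and 6 fell (7.14% and 42.9%, against 13.7% and 13.8%), and in STINGX with TGFb against control 3 rose and 6 fell (21.4% and 42.9%, against 17.2% and 17.0%). ALDH1L2, the mitochondrial formyltetrahydrofolate dehydrogenase, averaged 35.1 ± 0.986 CPM in STINGX with TGFb, 22.7 ± 0.707 CPM in TGFb and 11.5 ± 1.05 CPM in control. It rose by 0.98 ± 0.07 (adjusted p = 3.19e-07) with TGFb relative to control and by 0.63 ± 0.07 (adjusted p = 1.18e-05) in STINGX with TGFb relative to TGFb. MTHFD1L, the mitochondrial formyltetrahydrofolate synthetase, averaged 69.3 ± 4.94 CPM in STINGX with TGFb, 86.1 ± 2.61 CPM in TGFb and 54.6 ± 4.34 CPM in control. It rose by 0.66 ± 0.06 (adjusted p = 7.27e-06) with TGFb relative to control and fell by 0.31 ± 0.06 (adjusted p = 0.00273) in STINGX with TGFb relative to TGFb. With limma on log2(FPKM + 1) without a filter the change of MTHFD1L in that comparison was -0.16 and missed the threshold (adjusted p = 0.0592). SLC25A32, the mitochondrial folate carrier, rose by 0.49 ± 0.11 (adjusted p = 0.00416) with TGFb relative to control. Among the falls in STINGX with TGFb relative to TGFb were those of GGH, which trims folate polyglutamates (-0.73 ± 0.07, adjusted p = 8.47e-06), and TYMS, thymidylate synthase (-0.32 ± 0.06, adjusted p = 0.000883). In the methionine cycle 1 of 8 genes rose and 2 fell with TGFb against control (12.5% and 25.0%, against 13.2% and 12.8% of all genes). The one that rose was MTRR, the reductase that reactivates methionine synthase (0.44 ± 0.13, adjusted p = 0.0223), and its call was lost in 6 of 12 other settings (adjusted p up to 0.0879) and without TGFb replicate 2 (0.0655). In STINGX with TGFb 1 rose and 1 fell against TGFb, CTH (0.54 ± 0.14, adjusted p = 0.0122) and MAT2A (-0.16 ± 0.04, adjusted p = 0.0124), and 1 rose and 2 fell against control, all counts of 1 or 2 among 8 that are too few to set against the shares among all genes.

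Around proline, 1 of 9 genes rose and 2 fell with TGFb against control, 2 rose and 1 fell in STINGX with TGFb against TGFb, and 2 rose and 2 fell in STINGX with TGFb against control. Each count is 11.1% or 22.2% of the 9, where between 12.8% and 17.2% of all genes were called in each direction, so the counts are near the shares among all genes. ARG2, the mitochondrial arginase that feeds proline through ornithine, averaged 26.6 ± 2.21 CPM in STINGX with TGFb, 11.1 ± 0.892 CPM in TGFb and 20.7 ± 2.08 CPM in control. ARG2 fell by 0.89 ± 0.09 (adjusted p = 1.38e-05) with TGFb relative to control. It was 1.26 ± 0.09 higher (adjusted p = 5.38e-07) in STINGX with TGFb than in TGFb. PEPD, which frees proline from dipeptides, fell by 0.48 ± 0.08 (adjusted p = 0.000687) with TGFb relative to control, and GLUD1, glutamate dehydrogenase, fell by 0.23 ± 0.05 (adjusted p = 0.00251) in STINGX with TGFb relative to TGFb.

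A list of 25 genes of the ATF4 branch of the stress response, none of them one of the 8, was read beside them. It was chosen with earlier results of these data known, so its counts describe the list and are no independent test. With TGFb against control 7 of its genes rose and 5 fell (28% and 20%, against 13.2% and 12.8% of all genes). In STINGX with TGFb against TGFb 14 rose and 2 fell (56% and 8%, against 13.7% and 13.8%), and in STINGX with TGFb against control 17 rose and 2 fell (68% and 8%, against 17.2% and 17.0%). Its median was 0.07, 0.32 and 0.36 in the same order of comparisons, and the difference between comparisons was not tested. SLC3A2, a shared chain of amino acid exchangers, averaged 1294 ± 114 CPM in STINGX with TGFb, 212 ± 20.5 CPM in TGFb and 164 ± 11.6 CPM in control, and rose by 2.61 ± 0.08 (adjusted p = 2.63e-10) in STINGX with TGFb relative to TGFb. TRIB3, a pseudokinase, rose by 1.87 ± 0.07 (adjusted p = 6.82e-10) and SLC7A11, the cystine exchanger, by 1.70 ± 0.07 (adjusted p = 1.64e-09) in the same comparison. DDIT4 fell by 0.49 ± 0.06 (adjusted p = 2.75e-05) and the neutral amino acid exchanger SLC7A5 fell by 0.45 ± 0.06 (adjusted p = 4.62e-05). With TGFb alone SLC7A5 had risen by 1.10 ± 0.06 (adjusted p = 1.48e-08) over control, while STC2 fell by 0.98 ± 0.03 (adjusted p = 4.48e-10). ATF4 itself averaged 82.9 ± 8.27 CPM in STINGX with TGFb, 70.4 ± 3.87 CPM in TGFb and 61.2 ± 5.05 CPM in control. It rose by 0.24 ± 0.08 (adjusted p = 0.0418) in STINGX with TGFb relative to TGFb, a call that was lost in 8 of the 12 fits that left out 1 library, with adjusted p between 0.0156 and 0.126 over the 12; it held without STINGX with TGFb replicate 3, TGFb replicate 1, control replicate 1 or control replicate 3. Of the 8 enzymes, PSAT1, SHMT2 and MTHFD2 rose in that comparison, while PHGDH and ALDH18A1 fell.

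**Figure D5:**
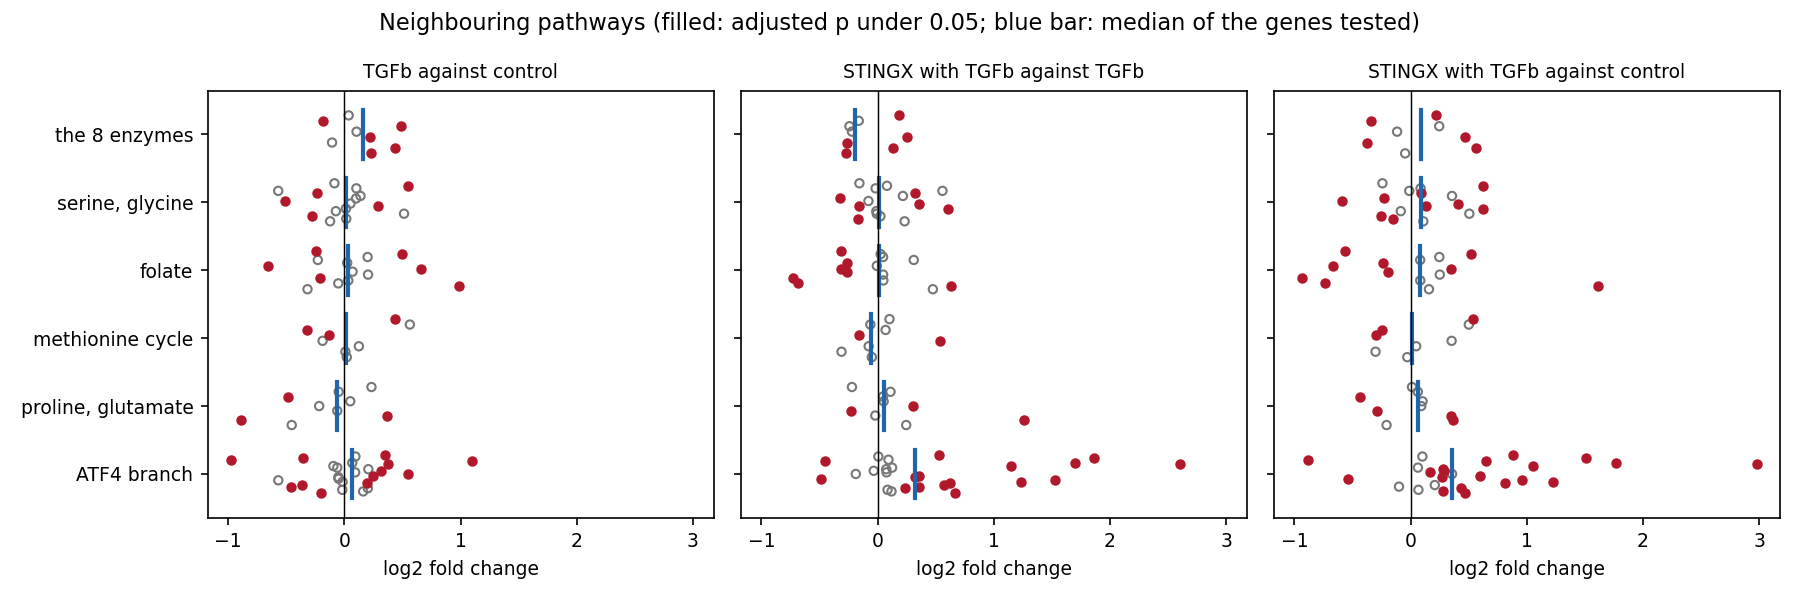
Log2 fold change of the 8 enzymes and of the genes of 5 neighbouring lists in the 3 comparisons, on a linear axis where values above 0 are higher in the group named first. Each point is a gene, filled where the adjusted p was under 0.05, and the blue bar is the median of the genes tested. The ATF4 branch has its median at 0.32 for STINGX with TGFb against TGFb, and the 8 enzymes at -0.19. In that comparison 3 of the 8 enzymes are filled above 0 and 2 below, so their median does not stand for each of them.

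The changes of the 8 enzymes are small, between 0.13 and 0.57 on the log2 scale where they passed, so the scaling of the libraries matters. Under TMM 49.98% of the calls in STINGX with TGFb against TGFb were higher, and with library totals alone 72.6% were, when the median of all genes moved to 0.147. For TGFb against control the share was 50.7% and, with totals alone, 38.7%. For STINGX with TGFb against control it was 50.3% and, with totals alone, 62.0%. With totals alone, and in the 3 fits of FPKM values, the falls of MAT2A and GLUD1 in STINGX with TGFb against TGFb no longer passed (adjusted p up to 0.841 for MAT2A and 0.159 for GLUD1). No enzyme that passed changed its direction under any scaling tried.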

How the data were processed

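Poly(A) RNA of LX2 cells was measured in 12 libraries, grouped by the labels. A stranded TruSeq kit and paired reads were used, per the labels' protocols. The submitters' processing notes name cutadapt, HISAT2, StringTie and edgeR and the build GRCh38, without saying whether strand was used in counting. The authors deposited whole-number estimated counts per gene and per transcript and FPKM values per gene, in which a count of 0 is listed as 0.0001. Precision rests on 54035320 to 70787741 counts per library.

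Here the estimated counts of 60612 genes were fitted with edgeR 4.0.16 in R 4.3.3: filterByExpr (minimum count 10, minimum total 15), TMM scaling, robust quasi-likelihood F tests on all 12 libraries together (9 residual degrees of freedom) and Benjamini-Hochberg adjustment over 21328 genes, calling genes at an adjusted p under 0.05. Transcripts were fitted the same way (79677 of 229420 tested). Standard errors are the log2 change over the root of its F statistic. FPKM ratios had exact permutation tests. The gene test was also run on counts simulated with less spread than these data, so that run gives no measure of error for the calls here. Alternatives used DESeq2 1.42.0, limma 3.58.1, other scalings and filters, 2-group fits, a replicate block, and each library left out. No libraries of a group agreed within counting noise (chi-square over degrees of freedom 38.4 to 80.8).

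The members and lists were chosen with earlier results of these data known. The rule named all 8 members, their pseudogenes, PYCR3, MTHFD2L, COL1A1, the 3 nearest genes to each member, and from each neighbouring list the 3 largest rises and falls past the threshold, of which the text gives a part. Some genes of these lists are counted but not reported by name here. ATF4 was named after its values were seen.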

Additional observations from a re-analysis of the deposited data

Results flagged for a closer look

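ALDH18A1 was uneven among the STINGX with TGFb libraries on the FPKM scale. Replicate 3, at 18.9 FPKM, stood apart from the other STINGX with TGFb libraries, at 17.7, 17.7 and 17.5 FPKM. Its gap to the nearest of them was 0.837 of the range of the group, above Dixon's critical value at 95% for 4 libraries. Of 54 groups of libraries examined 1 was flagged, and chance flags about 1 in 20. ALDH18A1 remained lower in STINGX with TGFb than in TGFb without any single library, with adjusted p between 0.000405 and 0.00194 in edgeR.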

How the results depend on the processing

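Enzymes passing with TGFb against control numbered 5, and 3 with library totals alone, with limma on log2(FPKM + 1) without a filter and with the replicate block, and 2 when the 2 groups were fitted alone. Leaving out single libraries gave 2 to 4 for that comparison, 3 to 6 for STINGX with TGFb against TGFb and 5 to 6 for STINGX with TGFb against control. Member transcripts passing in STINGX with TGFb against TGFb numbered 1 under a filter of 1 CPM in 4 libraries, against 3. Replicate numbers are shared between groups in the labels, but same-numbered libraries deviated together with correlations of only -0.0182 to 0.153, so they were not taken as pairs. With the replicate block, genes called were 5316 for TGFb against control, 5647 for STINGX with TGFb against TGFb and 7116 for STINGX with TGFb against control, against 5543, 5864 and 7296 without it, and enzymes called 3, 5 and 5. With limma on log2(FPKM + 1), 71.9% of calls were higher in STINGX with TGFb against TGFb, 38.8% in TGFb against control and 61.9% in STINGX with TGFb against control.

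Every sign change was in a difference that had not passed. SHMT2 in TGFb against control was -0.0046 under upper quartile scaling, -0.026 with library totals alone, -0.021 with FPKM + 1 (filtered or not) and -0.022 with FPKM + 0.1. ALDH18A1 in STINGX with TGFb against control was 0.031 with library totals, 0.029 with FPKM + 1 (filtered or not) and 0.031 with FPKM + 0.1. MTHFD2L in STINGX with TGFb against TGFb was 0.13 with library totals, 0.0041 without a filter, 0.0014 under voom, 0.043 with FPKM + 1 (filtered or not), 0.11 with FPKM + 0.1 and 0.0019 in the 2-group fit, and ran between -0.099 and 0.041 when single libraries were left out. PYCR3 in STINGX with TGFb against control was -0.039 under upper quartile scaling, -0.18 under voom, -0.067 with FPKM + 0.1 and -0.044 with the replicate block, and between -0.12 and 0.31 when single libraries were left out. In STINGX with TGFb against TGFb it ran between -0.35 and 0.080, the last without STINGX with TGFb replicate 1, which had 2.91 CPM. The cause was not tested.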
